A study of Mus musculus with 12 samples.

Results

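Expression was followed for 10 genes that make acetyl-CoA outside and inside mitochondria, or that put acetyl groups on histones or take them off. They were chosen by symbol, as the rows for Acly, Acss1, Acss2, Ep300, Crebbp, Kat2a, Kat2b, Kat5, Hdac3 and Sirt1, which makes 10 of the 43278 gene symbols in the table. All 10 had counts in all 12 libraries and all 10 passed the filter on low values in each comparison.

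The libraries came from thioglycolate-elicited peritoneal macrophages (PMφs) of wild-type mice, given in the study's methods as C57BL/6J of 8 to 12 weeks. PMφs are macrophages drawn into the peritoneal cavity by an irritant, and all 4 groups carried that elicitation and an adherence step of 18 h. Control PMφs received neither agent, oxLDL PMφs were cultured for 24 h with 100 µg/ml of human medium oxidized LDL, LPS PMφs received 10 ng/ml ultrapure LPS, and oxLDL+LPS PMφs received oxLDL first and LPS afterwards, with 3 libraries in each group. How long LPS was present is not given for these libraries. The study's methods describe lavage cells of up to 10 littermates of both sexes that were combined before the 4 groups were set up. By that account a library represents a pool and not a single mouse. The sex-linked values below are not those of mixed sexes in replicate 1 of control and oxLDL, nor in replicate 2 of any group.

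Cytosolic acetyl-CoA is cut from citrate by ATP citrate lyase (Acly) or made from acetate by Acss2, while Acss1 works on acetate in mitochondria. Histone acetyltransferases such as p300 (Ep300), CBP (Crebbp), GCN5 (Kat2a), PCAF (Kat2b) and TIP60 (Kat5) spend it on lysines of histones, and acetylated histone H3 lysine 27 marks active promoters and enhancers. Hdac3, which acts in corepressor complexes, and Sirt1, which needs NAD+, remove acetyl groups. The libraries measure transcripts only, so neither acetyl-CoA nor acetylation nor the activity of any of these proteins is in the data.

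The deposited values are whole numbers spaced like scaled read counts, with a single factor for each library, and are called normalized counts. The factors correspond to 16725738 to 26176495 reads per library, and the member with the fewest reads was Acss2, with 66 to 381 per library. Macrophage markers summed to at least 231967 normalized counts in each library, markers of B cells, T cells, neutrophils, mast cells and dendritic cells to at most 258, and markers of mesothelium and fibroblasts to between 2776 and 17093, with the lowest sums in replicate 3 of each group. Xist stood at 1 and 2 in replicate 1 of control and oxLDL but at 6331 and 3812 in replicate 1 of LPS and oxLDL+LPS, so that number 1 was not the same pool with and without LPS. The Y-linked Ddx3y stood at 0 to 2 in replicate 2 of each group and at 439 or more in all other libraries. What sets number 2 apart from the other numbers thus cannot be told apart from sex. In replicate 1, Ddx3y stood at 1156 and 1132 in control and oxLDL but at 459 and 439 in LPS and oxLDL+LPS. The sex-linked values of number 1 thus differed between the LPS states, which a block by number does not remove. Libraries of the same number nevertheless deviated from their group means together, and the value from a fit blocked by number (the replicate block) is given wherever it changed a call. For comparisons across the LPS states, number 1 does not pair libraries of the same pool, and blocked calls there carry that limit.

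The promoters of 3 members on which the results turn are printed. Kat2b had the most certain LPS difference, Acly had the highest level, and Acss2 had the most divergent libraries. The sequences are the 250 bases before the RefSeq transcription start on GRCm38.p6, read 5′ to 3′ along the gene, with matches on either strand to the CCAAT box, to the GC box (GGGCGG) or to the AP-1 motif (TGANTCA) in capitals. They lie at chr17:53566721-53566970 (plus strand, the first of 2 listed starts), chr11:100528001-100528250 (minus strand) and chr2:155517793-155518042 (plus strand).
Kat2b: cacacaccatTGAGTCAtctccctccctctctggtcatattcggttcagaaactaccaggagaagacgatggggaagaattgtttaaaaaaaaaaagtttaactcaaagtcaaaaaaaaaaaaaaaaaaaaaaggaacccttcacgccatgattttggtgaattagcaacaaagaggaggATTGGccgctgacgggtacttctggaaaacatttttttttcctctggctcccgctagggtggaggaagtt
Acly: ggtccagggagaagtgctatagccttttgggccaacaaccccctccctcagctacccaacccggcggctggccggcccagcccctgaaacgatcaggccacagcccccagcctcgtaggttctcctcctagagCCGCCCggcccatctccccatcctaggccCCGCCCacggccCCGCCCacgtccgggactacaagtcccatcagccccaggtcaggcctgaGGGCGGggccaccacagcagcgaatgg
Acss2: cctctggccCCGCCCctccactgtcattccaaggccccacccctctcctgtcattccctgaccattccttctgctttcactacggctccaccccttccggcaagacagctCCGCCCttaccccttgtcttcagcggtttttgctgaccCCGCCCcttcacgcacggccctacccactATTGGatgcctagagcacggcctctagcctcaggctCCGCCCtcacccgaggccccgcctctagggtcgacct

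The 250 bases of Kat2b held 40.8% G and C, against 68.8% for Acly and 64.0% for Acss2, and those of its homologue Kat2a 48.8%, and neither homologue had a GC box. Kat2b had a single AP-1 match, of a kind that 7.81% of 32851 mouse promoter windows hold, each running from 250 bases before to 50 after a start. GC boxes were found in 7 of the 9 members with a RefSeq promoter (Acly, Acss1, Acss2, Ep300, Crebbp, Kat5 and Sirt1), against 35.7% of all windows. A member was counted if any of its listed starts matched, whereas 35.7% is a share of single windows. Kat5 matched only at its second start. The sterol regulatory element TCACNCCAC, held by 1.24% of windows, was found only at the second start of Kat5 among these members, and the NF-kB consensus, held by 8.46%, at none. A match to these letters is a description of the window and not a bound site.

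Levels can be compared between genes only per length, here as normalized counts per kilobase of annotated exon. In control PMφs Acly was highest, at 709.9 ± 26.8 per kilobase (SD, n = 3), clear of all others. Below it came Kat2a at 220.6 ± 4.74, Acss1 at 196.6 ± 25.0, Hdac3, Kat5, Sirt1, Ep300 and Kat2b at 144.0 ± 7.75, each of which overlapped the next in the range of its libraries, although Acss1 and Hdac3 lay wholly above Kat2b. Crebbp followed at 71.05 ± 10.4 and Acss2 came last at 11.05 ± 2.18, each clear of its neighbours, although the exon length used for Acss2 includes retained introns and lowers its figure. In LPS PMφs Acly kept the top place at 879.5 ± 81.7 and Kat2b moved to the second, at 435.6 ± 19.1, clear of Kat5 at 225.3 ± 29.8. With the exon length used here, Acss2 was last in all 4 groups.

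**Figure D1:**
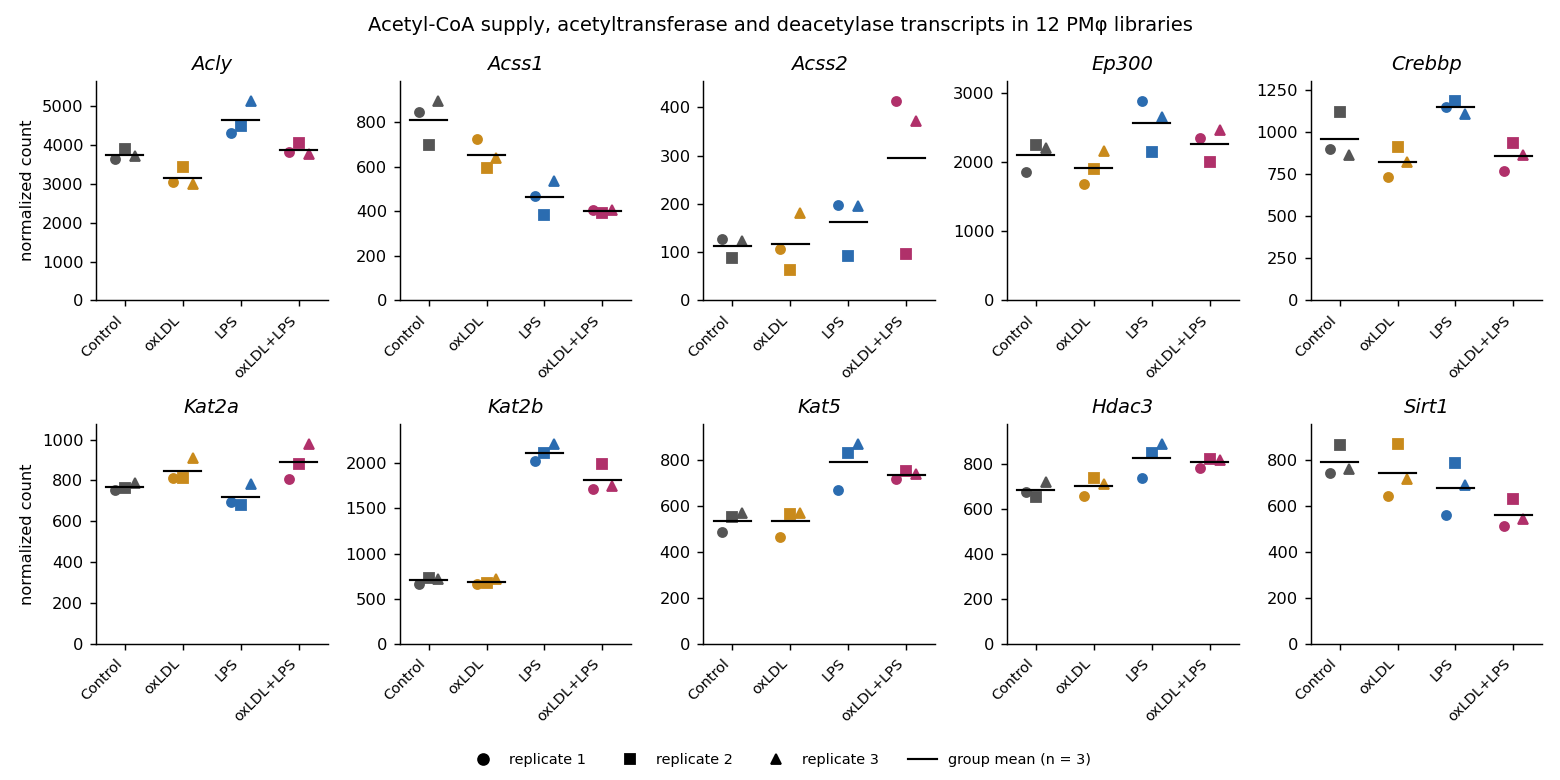
Normalized counts (linear axis from 0) of the 10 genes in each of the 12 libraries, by group; symbols mark the replicate number and black lines the mean of 3. Kat2b lies between 659 and 732 in the 6 libraries without LPS and between 1712 and 2214 in the 6 with it, and Acss2 in oxLDL+LPS is spread from 97 to 413.

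The first question was what LPS did to these transcripts in PMφs without oxLDL. Kat2b rose 3.02-fold, Kat5, Acly, Hdac3 and Crebbp rose by less, and Acss1 fell, so that 6 of 10 members were called at an adjusted p under 0.1, against 61.7% of all 13023 genes tested. Of the members 5 were higher and 1 was lower, against 31.4% and 30.3% of genes. The members' share is thus close to that of genes in general. The median log2 difference was 0.27 over the members and −0.00097 over all genes.

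Kat2b encodes PCAF, an acetyltransferase of the GCN5 family, and lies at chr17:53566861-53672720 on the plus strand of GRCm38. Its normalized counts were 659, 732 and 712 in control libraries 1 to 3 and 2028, 2118 and 2214 in LPS libraries. In PMφs given oxLDL they were 659, 675 and 719 without LPS and 1712, 1996 and 1748 with it. All libraries with LPS were far above all libraries without it. The log2 difference was 1.60 (SE 0.09, adjusted p = 4.59e-06, limma) without oxLDL and 1.41 (SE 0.09, adjusted p = 2.21e-05) with it, which are 3.02-fold and 2.66-fold in the means.

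Kat5 encodes TIP60, the catalytic subunit of the NuA4 complex, and lies at chr19:5603014-5610237 on the minus strand. Control libraries held 488, 554 and 568 normalized counts and LPS libraries 672, 830 and 870, while oxLDL libraries held 466, 567 and 570 and oxLDL+LPS libraries 716, 754 and 741. The groups with LPS did not overlap those without it. The differences were 0.55 (SE 0.13, adjusted p = 0.00745, limma) and 0.47 (SE 0.11, adjusted p = 0.00895) on the log2 scale. Of the 3509 exonic bases of Kat5, 426 are shared with Rnaseh2c on the other strand, and whether reads were counted by strand is not given. Rnaseh2c itself stood at 270 to 340 in control and 186 to 237 in LPS libraries, opposite in direction to Kat5. Whether Rnaseh2c reads contribute to the Kat5 count was not tested.

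Acly, at chr11:100476353-100528000 on the minus strand, held 3626, 3903 and 3713 normalized counts in control and 4310, 4488 and 5130 in LPS libraries. With oxLDL it held 3038, 3432 and 2993 without LPS and 3827, 4058 and 3755 with LPS. LPS libraries lay above their counterparts without LPS in both settings, with no overlap, and the oxLDL+LPS libraries overlapped the control libraries. The log2 differences were 0.31 (SE 0.10, adjusted p = 0.0288, limma) and 0.30 (SE 0.09, adjusted p = 0.0230).

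Acss1, the mitochondrial acetyl-CoA synthetase at chr2:150618105-150668500 on the minus strand, moved the other way. It held 844, 696 and 895 normalized counts in control and 470, 382 and 537 in LPS libraries, and 723, 592 and 641 in oxLDL against 407, 392 and 405 in oxLDL+LPS libraries. The groups did not overlap in either setting. Acss1 fell by 0.81 (SE 0.15, adjusted p = 0.00302, limma) and by 0.69 (SE 0.10, adjusted p = 0.00128) on the log2 scale.

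Acss1 also followed a gene of another list. Siglecf, a marker of eosinophils that some macrophages also carry, fell from 315 to 383 normalized counts in control to 99 to 124 in LPS libraries, and was the gene whose values followed Acss1 most closely over the 12 libraries (Pearson r = 0.992 after removing the mean of each replicate number). The eosinophil genes Epx and Prg2 were at 0 or 1 in all libraries, Il5ra at no more than 3 and Ccr3 at no more than 10, so the summed list, from 319 to 386 in control and 105 to 125 in LPS libraries, was nearly all Siglecf. In a bulk sample, fewer cells of a kind and less RNA per cell cannot be told apart.

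The other 2 called members were close to the limit of the test. Hdac3 held 675, 654 and 720 normalized counts in control and 737, 848 and 887 in LPS libraries, which do not overlap, and rose by 0.27 (SE 0.10, adjusted p = 0.0613, limma). Crebbp (chr16:4081328-4213997, minus strand) held 898, 1123 and 865 in control and 1149, 1186 and 1109 in LPS libraries, of which LPS replicate 3 lies below control replicate 2, and rose by 0.26 (SE 0.12, adjusted p = 0.0908). With oxLDL present Hdac3 rose by 0.20 (SE 0.08, adjusted p = 0.0857), from 655, 737 and 709 to 781, 823 and 815, whereas Crebbp differed by 0.06 (SE 0.12, adjusted p = 0.722), from 735, 913 and 824 to 771, 935 and 863. Leaving out single libraries removed the call of Crebbp in 5 of 6 cases without oxLDL, and that of Hdac3 in 4 of 6 without oxLDL and 5 of 6 with it.

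Sirt1, at chr10:63319005-63381704 on the minus strand, held 744, 864 and 762 normalized counts in control, 560, 785 and 692 in LPS, 641, 868 and 717 in oxLDL and 510, 630 and 541 in oxLDL+LPS libraries. Replicate 2 was highest in each group, and of the 4 comparisons only oxLDL+LPS with oxLDL showed no overlap. The log2 difference was −0.23 (SE 0.14, adjusted p = 0.204, limma) without oxLDL and −0.40 (SE 0.14, adjusted p = 0.0495) with it. With the replicate block the value without oxLDL was called as well (adjusted p = 0.0794), and leaving out single libraries removed the call with oxLDL in 3 of 6 cases.

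On the deposited scale Ep300 and Kat2a were not called without the block. Ep300 (chr15:81585351-81652077, plus strand) held 1849, 2251 and 2201 normalized counts in control, 2882, 2144 and 2653 in LPS, 1679, 1899 and 2161 in oxLDL and 2347, 1994 and 2461 in oxLDL+LPS libraries. Without oxLDL, replicate 2 was the only number with no gain, and the log2 differences of 0.28 (SE 0.13, adjusted p = 0.116, limma) and 0.25 (SE 0.12, adjusted p = 0.142) missed the threshold, the second of which was called with the block (adjusted p = 0.0686). Kat2a (chr11:100704746-100712465, minus strand) held 754, 763 and 786 in control and 694, 680 and 784 in LPS libraries, overlapping, with a log2 difference of −0.10 (SE 0.09, adjusted p = 0.420) and of 0.07 (SE 0.10, adjusted p = 0.603) in PMφs with oxLDL.

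In PMφs with accumulated oxLDL, LPS thus moved the same 4 members by the most certain amounts, Kat2b, Kat5 and Acly upward and Acss1 downward, and these 4 kept their calls with any single library left out, in both settings. There, 6 of 10 members were called against 54.5% of the 12900 genes tested, with 4 higher and 2 lower against 28.2% and 26.3% of genes. With the block, 8 of 10 were called in each setting, against 68.7% of genes without oxLDL and 63.4% with it.

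These directions depend in part on the scaling. The deposited values sum to 17152972 to 17709731 per control library and to 22590678 to 26384551 per LPS library. When all totals were set equal, the median of all genes moved to −0.48 without oxLDL and −0.40 with it, and the share of called genes that were higher fell from 50.9% to 23.5% and from 51.7% to 23.7%. Kat2b remained higher, at 1.11 (SE 0.08) and 1.02 (SE 0.09), and Acss1 remained lower, at −1.30 (SE 0.15) and −1.08 (SE 0.11). The Kat5 values shrank to 0.07 and 0.08 and were not called, while Acly, Ep300, Crebbp and Hdac3 turned negative in both settings, Acly to −0.18 (adjusted p = 0.0616, limma) and −0.09 (adjusted p = 0.393). Kat2a was called lower in both settings, at −0.58 (adjusted p = 0.000567, limma) and −0.32 (adjusted p = 0.0218), as was Sirt1, at −0.71 (adjusted p = 0.00186) and −0.79 (adjusted p = 0.00203). The members called thus changed from 5 higher and 1 lower without oxLDL, and 4 and 2 with it, to 1 higher and 5 lower in both settings, against 17% of genes higher and 55.3% lower without oxLDL and 15.9% and 51.3% with it. Equal totals shift all genes by nearly the same amount, so the place of a gene relative to the median of all genes could hardly change. Acly, Kat5, Ep300, Crebbp and Hdac3 lay above that median in both settings.

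**Figure D2:**
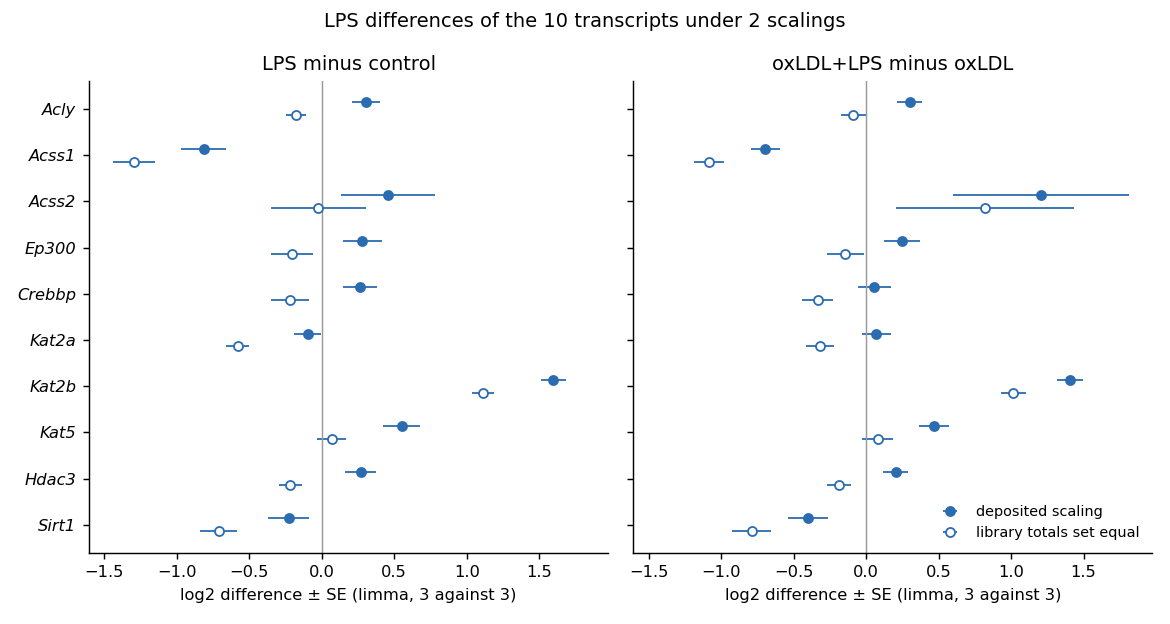
Log2 differences (x axis, with standard errors from limma) of the 10 genes for LPS without oxLDL (left) and with oxLDL (right); filled points use the deposited scaling and open points library totals set equal. Kat2b is above 1 and Acss1 below −0.6 under both scalings, whereas Acly, Ep300, Crebbp and Hdac3 cross from above to below 0.

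Ratios of members within a library do not depend on the scaling. The Kat2b to Kat2a ratio per kilobase, between 2 close homologues, was 0.625, 0.686 and 0.648 in control, 0.581, 0.596 and 0.564 in oxLDL, 2.09, 2.23 and 2.02 in LPS and 1.51, 1.62 and 1.28 in oxLDL+LPS libraries. Kat2a was thus the more abundant of the pair without LPS and Kat2b with LPS, and oxLDL libraries lay below their counterparts without oxLDL in both LPS states. No groups overlapped, and each of the 4 comparisons had p = 0.1 in a two-sided exact permutation test, the smallest that 3 libraries against 3 allow.

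The ratio of Acly to Acss1 rose in the same way from 3.66 ± 0.628 in control to 7.94 ± 1.09 in LPS libraries (SD, n = 3, exact permutation p = 0.1), and from 3.82 ± 0.641 in oxLDL to 7.57 ± 0.461 in oxLDL+LPS libraries (exact permutation p = 0.1). Acly was higher and Acss1 lower with LPS without overlap in both settings, so this outcome was fixed and adds no separate evidence. The ratio of Ep300 to Crebbp, the pair of acetyltransferases best known for H3K27, was 2.09 ± 0.282 in control, 2.21 ± 0.260 in oxLDL, 2.12 ± 0.356 in LPS and 2.54 ± 0.456 in oxLDL+LPS libraries, and overlapped in all 4 comparisons (exact permutation p from 0.3 to 1.0). Within replicate numbers it was higher in 3 of 3 for oxLDL against control, for oxLDL+LPS against oxLDL and for oxLDL+LPS against LPS, the last from 2.38 to 2.89, 1.71 to 2.02 and 2.27 to 2.71, and in 1 of 3 for LPS against control.

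**Figure D3:**
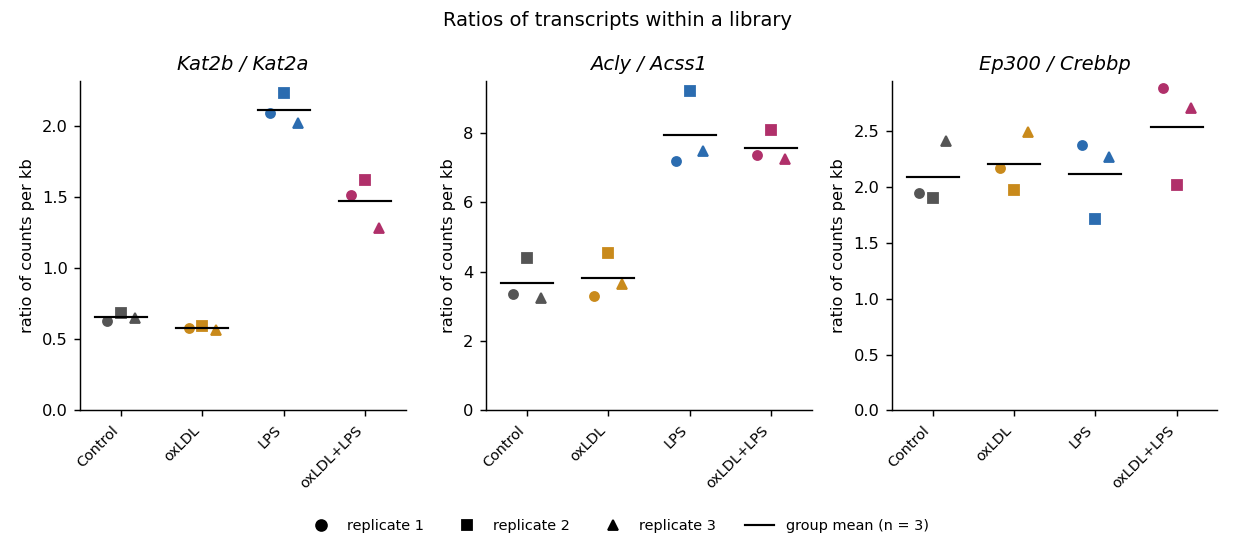
Ratios of normalized counts per kilobase within each library (linear axes from 0) for Kat2b to Kat2a, Acly to Acss1 and Ep300 to Crebbp; symbols mark the replicate number and lines the mean of 3. The Kat2b to Kat2a ratio lies between 0.564 and 0.686 without LPS and between 1.28 and 2.23 with it, and the Ep300 to Crebbp ratio overlaps between groups.

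The second question was what oxLDL accumulation did to the same genes, first without LPS. Without a block, 0 of 10 members were called at an adjusted p under 0.1 and 0% of the 12751 genes tested were, although 381 genes had an unadjusted p under 0.05. With the replicate block, Acly, Acss1 and Crebbp were lower, so that 3 of 10 members were called against 4.71% of genes (601), or 2.92% lower. The medians were −0.08 over the members and −0.01 over all genes.

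Acly libraries of oxLDL PMφs (3038, 3432 and 2993) lay below all control libraries (3626, 3903 and 3713). The differences within replicate numbers 1 to 3 were −0.26, −0.19 and −0.31 on the log2 scale, with a mean of −0.25 (adjusted p = 1 without the block and 0.0159 with it, limma). For Acss1 they were −0.22, −0.23 and −0.48, with a mean of −0.31 (adjusted p = 1 and 0.0252), and for Crebbp −0.29, −0.30 and −0.07, with a mean of −0.22 (adjusted p = 1 and 0.0810). Those 2 were lower in 3 of 3 numbers, while the groups as a whole overlapped. The calls rested on few libraries: with the block and without number 1, 2 or 3, members called numbered 1, 0 and 4, and genes 214, 139 and 1285.

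In LPS-stimulated PMφs, 0 of 10 members and 0% of 12786 genes were called without the block, with 890 genes at an unadjusted p under 0.05. With the block 4 of 10 members were called against 13.2% of genes (1682). Crebbp and Sirt1 were lower, as were 8.74% of genes, and Kat2a and Acss2 were higher, as were 4.42%. The median was −0.18 over the members and −0.01 over all genes.

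Crebbp was lower in all oxLDL+LPS libraries (771, 935 and 863) than in any LPS library (1149, 1186 and 1109), and stood at the level of the oxLDL libraries. Its differences by number were −0.58, −0.34 and −0.36, with a mean of −0.43 (SE 0.10, adjusted p = 0.698 without the block and 0.0165 with it, limma). Kat2a was higher in all oxLDL+LPS libraries (808, 880 and 978) than in any LPS library (694, 680 and 784), by 0.22, 0.37 and 0.32, with a mean of 0.30 (adjusted p = 0.704 and 0.0474). In PMφs without LPS, Kat2a was also higher in all oxLDL libraries (811, 810 and 912) than in any control library, by 0.14 on average, which was not called even with the block (adjusted p = 0.229).

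Sirt1 differed by −0.13, −0.32 and −0.35 in numbers 1 to 3, with overlapping groups (adjusted p = 0.752 without the block and 0.0863 with it, limma). Acly and Kat2b lay below all LPS libraries in all oxLDL+LPS libraries, at −0.26 (adjusted p = 0.705 without and 0.102 with the block) and −0.22 (adjusted p = 0.709 and 0.113), and were called in neither fit. Ep300, at −0.17, and Kat5 and Hdac3, at −0.09 and −0.03, were not called either. Ep300 was lower in 3 of 3 numbers here and also without LPS, at −0.14 on average, where it was not called.

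**Figure D4:**
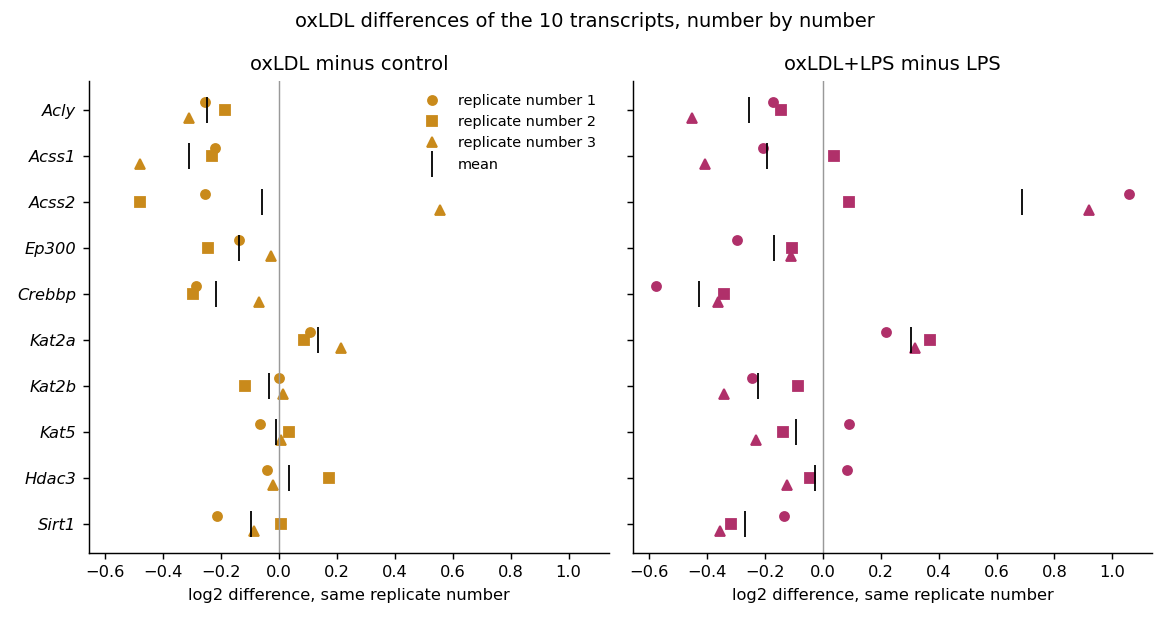
Log2 differences between libraries of the same replicate number (x axis) for oxLDL against control (left) and oxLDL+LPS against LPS (right) for the 10 genes; symbols mark the number and bars the mean. Acly, Ep300 and Crebbp are below 0 and Kat2a above 0 in 3 of 3 numbers on both sides, whereas the Acss2 differences run from −0.48 to 1.06.

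With the block, the calls under LPS also rested on which numbers were kept: without number 1, 2 or 3, members called were 0, 6 and 0, and genes 71, 2945 and 0. In oxLDL+LPS, replicate 2 held 44508 normalized counts of Il1b and 4786 of Il6, the highest of its group. Replicates 1 and 3 held 7630 and 21943 of Il1b and 261 and 2683 of Il6. In LPS, replicates 1 to 3 held 51068, 85645 and 152939 of Il1b and 2135, 9776 and 14906 of Il6, highest in replicate 3. Whether these values bear on the calls was not tested. Without oxLDL+LPS replicate 2 and without a block, 91 genes but none of the members were called.

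Acss2 showed the widest spread. It held 128, 87 and 122 normalized counts in control, 107, 62 and 180 in oxLDL, 198, 91 and 196 in LPS and 413, 97 and 372 in oxLDL+LPS libraries. Replicate 2 was lowest in each group, and replicates 1 and 3 of oxLDL+LPS were the highest of the 12. The log2 difference of oxLDL+LPS from LPS was 0.69 (SE 0.58, adjusted p = 0.825, limma) and was called with the block (SE 0.18, adjusted p = 0.0490), but not with the block and without number 1 (0.51, adjusted p = 0.350) or number 3 (0.57, adjusted p = 0.429). The difference of oxLDL+LPS from oxLDL was 1.21 (SE 0.61, adjusted p = 0.145), called with the block (adjusted p = 0.00685), and that of LPS from control 0.46 (adjusted p = 0.268), called with the block (adjusted p = 0.0513).

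The Acss2 value is uncertain for another reason. Its annotated exons at chr2:155517948-155585724 share 395 bases with Gss, the glutathione synthetase gene on the other strand, and the library kit keeps strand but its use in counting is not given. Gss held 224, 161 and 206 normalized counts in control, 241, 193 and 343 in oxLDL, 343, 197 and 283 in LPS and 1074, 200 and 890 in oxLDL+LPS libraries. The same 2 libraries were highest and replicate 2 was lowest in each group, as for Acss2. Whether Gss reads contribute to the Acss2 count was not tested. The antisense gene Acss2os held at most 2.

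**Figure D5:**
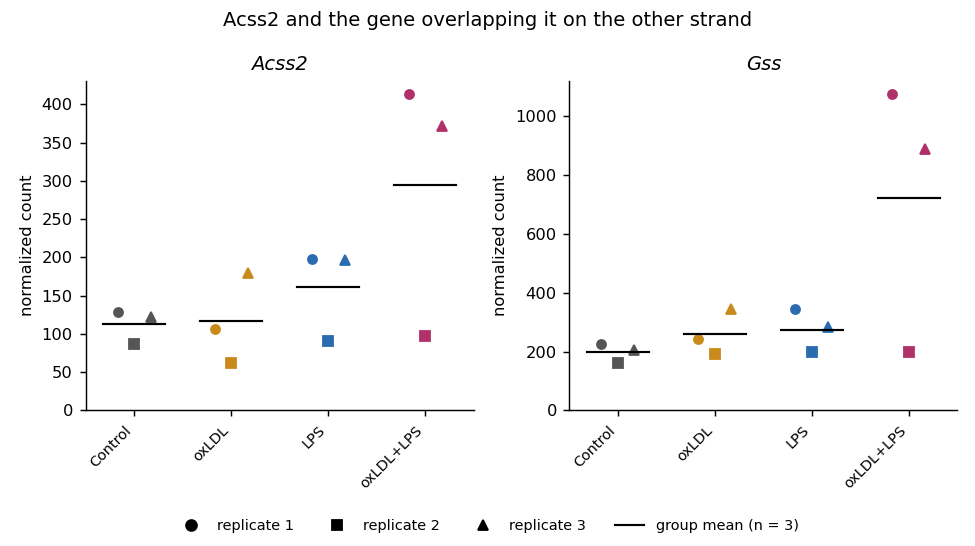
Normalized counts (linear axes from 0) of Acss2 and of Gss, which overlaps it on the other strand, in each library; symbols mark the replicate number and lines the mean of 3. In both genes oxLDL+LPS replicates 1 and 3 are highest of all libraries and replicate 2 stays at the level of the other groups, 97 for Acss2 and 200 for Gss.

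Whether oxLDL changed the LPS response was tested as an interaction over all 12 libraries. It was called for 0 of 10 members and 0% of 13482 genes, with 418 genes at an unadjusted p under 0.05. The estimate was largest for Acss2, at 0.75 (SE 0.77, adjusted p = 0.9999, limma), followed by Crebbp at −0.21 (SE 0.17), Kat2b at −0.19 (SE 0.11), Sirt1 at −0.17 (SE 0.21) and Kat2a at 0.17 (SE 0.13), and it was −0.01 (SE 0.12) for Acly. The Acss2 estimate rested on single libraries: it was 1.42 without oxLDL+LPS replicate 2, 1.13 without oxLDL replicate 3, and between 0.37 and 0.45 without oxLDL replicate 2, LPS replicate 2, or oxLDL+LPS replicate 1 or 3. With the number as a block within each LPS state, 1.09% of genes (147) and still none of the members were called, with the smallest adjusted p for Acss2 (0.298).

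The genes around the members were read from lists. Of 22 tested genes around acetyl-CoA supply, 6 rose and 8 fell with LPS, against 31.4% and 30.3% of all genes. The list also holds pyruvate dehydrogenase kinases, with Pdk1 and Pdk2 among the lower and Pdk3 among the higher, so these are not counts of suppliers. With equal totals 1 was higher and 16 were lower, against 17% and 55.3% of genes. The same shares stand beside the LPS counts of the lists that follow. With oxLDL present the shares are 28.2% and 26.3%, or 15.9% and 51.3% with equal totals. Slc25a1, the mitochondrial citrate exporter that feeds Acly, rose by 0.58 (adjusted p = 0.00383, limma) from 1427, 1223 and 1185 to 1885, 1718 and 2128 normalized counts, without overlap, though only by 0.10 with equal totals. Dld, a pyruvate dehydrogenase subunit, rose by 0.87 (0.39 with equal totals), while Crat, which moves acetyl groups onto carnitine, fell by 1.58 and Idh1, the cytosolic isocitrate dehydrogenase, fell by 2.98. With oxLDL present the count was again 6 higher and 8 lower, or 1 and 13 with equal totals.

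Slc25a1 followed Acly under oxLDL too. With the block it fell by 0.21 without LPS (adjusted p = 0.0477, limma) and by 0.35 with LPS (adjusted p = 0.0476). With the block 3 genes of that list were lower and 0 higher without LPS, against 2.92% of genes lower, and 3 were lower and 2 higher (Idh1 and Crat) with LPS, against 8.74% and 4.42% of genes.

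Sterol and fatty acid synthesis, which draws on cytosolic acetyl-CoA, was read because Acly is among the targets of SREBP transcription factors. With LPS, 10 of 18 genes rose and 2 fell, or 6 and 5 with equal totals, and Srebf2, which encodes SREBP2, rose by 0.81 (0.33 with equal totals). Srebf1 rose by 0.41 on the deposited scale and stood at −0.07 with equal totals. With oxLDL and the block, 15 of 18 genes fell and 0 rose both without LPS (list median −0.73, all genes −0.01) and with LPS (list median −0.88, all genes −0.01). Srebf2 held 3350, 2844 and 3167 normalized counts in control, 2292, 2108 and 1782 in oxLDL, 5655, 4284 and 6779 in LPS and 3608, 3016 and 3648 in oxLDL+LPS libraries, with group means in the same order as those of Acly, and in both genes the control and oxLDL+LPS groups overlapped. Without the block none of these genes was called with oxLDL.

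The genes most like Acly over the 12 libraries, by Pearson correlation after removing the mean of each replicate number, were Srebf2 (0.989) and Fdft1 (0.986), an enzyme of sterol synthesis. For Kat2b they were Samhd1, Erap1 and Casp8 (0.999 each), and for Kat5 Ppp4r1, Kdm5c and Hspa8 (0.988 to 0.990). Rarb (0.990) and Add1 (0.988) followed Siglecf for Acss1. The corresponding genes were Trio, Qrich1 and Gstt1 for Crebbp (0.934 to 0.952), Yipf5, Ms4a4b and Ciapin1 for Hdac3 (0.975 to 0.982), Zfp964, Azin1 and Rnf169 for Sirt1 (0.956 to 0.966), Flywch1, Xrcc2 and Pex11a for Kat2a (0.899 to 0.920), Top3a, Abcc4 and Abr for Acss2 (0.964 to 0.971) and Tnrc18, Zeb2 and 4931406P16Rik for Ep300 (0.969 to 0.990). The libraries share 4 group means, so likeness over them largely reflects which groups were high.

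Among 15 other acetyltransferases, 4 rose and 4 fell with LPS, or 3 and 12 with equal totals. Hat1, which acetylates newly made histone H4, rose by 1.58 and Kat6a by 1.01 (0.52 for Kat6a with equal totals), and Kat6b, the close homologue of Kat6a, fell by 1.81 (adjusted p = 0.000704, limma). Of 38 subunits of acetyltransferase complexes, 13 rose and 9 fell, or 4 and 23 with equal totals. Ep400 and Morf4l2, which share the NuA4 complex with Kat5, rose by 1.62 and 1.08 (1.14 and 0.59 with equal totals), and Ing4 fell by 1.46. With oxLDL present the counts were 3 and 4 of the acetyltransferases and 12 and 10 of the subunits.

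Of 16 deacetylases other than the members, 4 rose and 9 fell with LPS, or 2 and 12 with equal totals. Hdac9 rose by 2.24 and Hdac1 by 1.54, against 0.27 for Hdac3 of the same class as Hdac1, while Hdac5 fell by 2.65, from 1663, 1839 and 1777 to 362, 242 and 247 normalized counts. Hdac1 and Hdac9 were still higher and Hdac5 lower with equal totals. In PMφs with oxLDL 4 rose and 7 fell. Of 5 subunits of the Hdac3 corepressor complex 1 rose and 2 fell, in PMφs without and with oxLDL alike. Without oxLDL Tbl1x rose by 0.54 and Tbl1xr1 fell by 0.78, and with equal totals 0 of the 5 rose and 4 fell.

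Bromodomain proteins read acetylated histones. Brd2 rose by 1.68 with LPS, and also rose with oxLDL present. Of 15 genes around AKT, the kinase that phosphorylates Acly, 8 rose and 5 fell with LPS and 6 and 4 with oxLDL present, or 6 and 7 and then 6 and 8 with equal totals. Akt1 fell by 0.54 (adjusted p = 0.000806, limma). Akt2 held 1914, 1827 and 1848 normalized counts in control, 2004, 1886 and 1825 in oxLDL, 2290, 2585 and 2876 in LPS and 2101, 2579 and 1978 in oxLDL+LPS libraries, and rose by 0.47 with LPS (adjusted p = 0.00593), or stood at −0.02 with equal totals. Under oxLDL it differed by 0.03 without LPS (adjusted p = 0.798 with the block) and by −0.22 with LPS (adjusted p = 0.225 with the block).

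The study assayed acetylated H3K27 at the promoters of Il1a, Il1b, Il6 and Ccl5, and their transcripts can be set beside the acetyltransferases. All 4 rose with LPS, in both settings. Il1b went from 20, 11 and 7 normalized counts in control to 51068, 85645 and 152939 in LPS and to 7630, 44508 and 21943 in oxLDL+LPS libraries. With the block Il6, Il1b and Il1a were lower in oxLDL+LPS than in LPS libraries, at −2.18, −2.16 and −2.02 on the log2 scale (adjusted p from 0.00615 to 0.00787, limma), and Ccl5 differed by −0.32 (adjusted p = 0.169). In the same comparison the members differed by between −0.43 (Crebbp) and 0.69 (Acss2).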

How the data were processed

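Per the authors' methods, poly(A) RNA libraries were trimmed with Trimmomatic 0.32, aligned to mm10 (GRCm38) with STAR 2.5.1b and counted over GENCODE exons with featureCounts. The deposited table was treated as a score, because the authors scaled the counts by a factor for each library and rounded them, and neither the scaling nor the use of strand in counting is given in the sources used here. Tests for raw counts were therefore not run. The factors were read from gaps in the low values. Of 72 simulated columns with known factors, 71 came back within 1% (largest error 0.13%) and 1, whose factor put many values at a rounding tie, came back doubled. In the 12 libraries the log-likelihood of the factor exceeded that of its double by at least 56. The factors serve only to give depth and enter no test. The 25 symbols that had become dates (at most 0.165% of a library) stayed among the gene symbols and in the library totals.

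Groups were compared with limma 3.58.1 in R 4.3.3 (lmFit, eBayes with a variance trend) on log2 of the value plus 1, for genes at 10 or more in at least 3 libraries. Adjusted p-values are from limma with Benjamini-Hochberg adjustment over all genes tested, and genes under 0.1 were called. The fit was tested on simulated data. Each comparison used its own 6 libraries, and the interaction all 12. Alternatives were the replicate block, pseudocounts of 0.5 and 5, no filter or a filter in all libraries, equal totals, median centring, all 12 libraries in 1 fit, no variance trend, and each library left out. The block within each LPS state and the block without 1 number were added after the data were seen. Ratios within a library and their permutation tests were not set out beforehand, and not all that were computed are shown.

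The labels give replicates 1 to 3 in each group, and the methods describe divided pools. Deviations of same-numbered libraries from their group means, over 11186 genes, were correlated. The values were 0.691 to 0.731 for oxLDL and control and 0.664 to 0.733 for oxLDL+LPS and LPS. They were 0.410 to 0.617 for LPS and control and 0.330 to 0.665 for oxLDL+LPS and oxLDL. The numbers were therefore used as a block. Number 1 was not the same pool with and without LPS, so across the LPS states the block does not pair libraries of the same pool. Whether replicates were separate experiments is not in the labels, so p-values measure the spread between these libraries.

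The members and the gene lists (182 genes, 138 without cell type markers, written by hand) were chosen with earlier results of these data known. From the lists, genes called in a comparison are named, at most 4 per list and comparison by smallest p, besides Akt1, Akt2, Srebf1, Srebf2, Il1a, Il1b, Il6 and Ccl5. For each member, the 3 genes most correlated with it are named. A few genes that the rule names are not reported here. Gss, Rnaseh2c, Dld, Kat6b, Pdk1, Pdk3 and, for LPS, Slc25a1 fall outside that rule and were chosen after their values were seen. The eosinophil markers Epx, Prg2, Il5ra and Ccr3 also fall outside it. Positions are from GENCODE M21, and promoters from RefSeq on GRCm38.p6 for 9 members. Depth is given in implied reads.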

Additional observations from a re-analysis of the deposited data

How the results depend on the processing

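Of 450 values of members under settings other than left-out libraries, 412 kept direction and side of the threshold, 8 lost a call, 15 gained one and 15 reversed. All 15 reversals came with equal totals. For LPS against control these were Acly (−0.18), Acss2 (−0.023), Ep300 (−0.20), Crebbp (−0.22) and Hdac3 (−0.22), and for oxLDL+LPS against oxLDL Acly (−0.090), Ep300 (−0.14), Crebbp (−0.33), Kat2a (−0.32) and Hdac3 (−0.19). The others were Hdac3 for oxLDL+LPS against LPS (0.063) and, in the interaction, Acly (0.088), Ep300 (0.060), Kat5 (0.0096) and Hdac3 (0.030). By construction equal totals lower all values of the libraries with larger sums.

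The replicate block raised the called members from 0 to 3 and genes from 0 to 601 for oxLDL against control, and members from 0 to 4 and genes from 0 to 1682 for oxLDL+LPS against LPS. With LPS it added calls for Acss2 and Sirt1 without oxLDL and for Acss2 and Ep300 with oxLDL, and changed no other call of a member. In the interaction the block by number alone called 0 genes (967 at an unadjusted p under 0.05), and the block within each LPS state called 147.

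Of 360 values with a library left out, 314 kept direction and call. Genes called ranged from 0 to 91 for oxLDL+LPS against LPS and from 0 to 6 in the interaction, both highest without oxLDL+LPS replicate 2. Members that changed sign were not called before: for oxLDL against control Acss2 (−0.44 to 0.32), Kat5 (−0.076 to 0.086), Hdac3 (−0.0021 to 0.083) and Sirt1 (−0.22 to 0.0011); for oxLDL+LPS against oxLDL Crebbp (−0.023 to 0.13); for oxLDL+LPS against LPS Hdac3 (−0.11 to 0.028); and in the interaction Acly (−0.057 to 0.069), Acss1 (−0.011 to 0.23) and Ep300 (−0.16 to 0.059). The cause was not tested. Crebbp (LPS against control) and Hdac3 (oxLDL+LPS against oxLDL) also lost their calls with no filter, with median centring and with no variance trend.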
